A study of Homo sapiens with 6 samples.

Results

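The collagen genes and the genes for the enzymes and chaperones that process collagen were followed in A549 cells, a line derived from a human lung adenocarcinoma, in 3 libraries of RAVER1 knockout cells and 3 libraries of parental cells. Members were all genes of the deposited count table whose symbol has the form of a collagen chain, 44 in all, together with 19 named processing genes, which gives 63 of 60624 genes. The knockout cells had been made with CRISPR/Cas9, carry the label KO2 in their titles, and their label does not say whether KO2 is 1 clone. The parental cells are labelled WT, and the labels give no other treatment for either group. RAVER1 binds RNA and works with the splicing regulator PTBP1, and the comparison asks what its loss does to the transcripts of the cell. The series calls the libraries of a group biological replicates, so the p-values measure the spread between libraries of 1 knockout label and say nothing about how other knockout lines would vary.

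Collagens are made of chains wound into triple helices, and each collagen type is assembled from its own chain genes. Fibrillar collagens build the cables of connective tissue, type IV collagen forms the sheet of the basement membrane under epithelia, and the fibril-associated collagens with interrupted helices, called FACIT, sit on the surface of fibrils. In the endoplasmic reticulum the chains are hydroxylated on proline and lysine and held by the chaperone HSP47, which SERPINH1 encodes. After secretion, propeptides are cut off and lysyl oxidases start the cross-linking of the chains. Epithelial tumour cells often make basement membrane collagens, whereas the bulk of fibrillar collagen in lung comes from fibroblasts.

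Libraries held 29811747 to 39910127 counts. RAVER1 itself had 110, 112 and 79 counts in knockout libraries, against 2510, 1996 and 2285 counts in parental libraries, which is 3.94% of the parental level. Levels below are CPM (counts scaled to a common library size) with TMM scaling, and tests are edgeR's quasi-likelihood test with p-values adjusted over the 16652 genes that passed a filter on low counts, with an adjusted p under 0.05 taken as a change. Of the cell type markers looked at, all 6 epithelial genes fell, with a summed level of 3561 to 4117 CPM in knockout libraries and 6614 to 7250 CPM in parental libraries. Of 8 fibroblast markers, 3 were tested. THY1 and PDGFRA rose, and TCF21 was lower in every knockout library than in any parental one without passing the test (log2 fold change -0.65, adjusted p = 0.053 by edgeR). The summed level of the list was 18.1 to 19.4 CPM in knockout libraries and 10.5 to 12.5 CPM in parental libraries, and DCN and FAP had no count in any library. The 5 genes that mark the A549 line, such as AKR1B10 and ALDH1A1, were high in every library, with a summed level of 12940 to 13950 CPM in knockout and 15360 to 15720 CPM in parental libraries. Of 5 leukocyte markers 1 was tested, CD14, and the list summed to 3.92 to 5.25 CPM in knockout and 5.08 to 5.79 CPM in parental libraries. The 5 endothelial markers summed to at most 0.129 CPM in any library, and the part of any of these lists in the collagen results was not tested. In bulk RNA, fewer cells of a type and less RNA per cell cannot be told apart. The table counts reads per gene, so isoforms, and with them splicing, were not measured.

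Collagen transcripts were on the whole more abundant in RAVER1 knockout cells. Of the 63 members, 44 passed the filter, 26 of 44 collagen genes and 18 of 19 processing genes, and of these 26 rose, 6 fell and 12 did not pass the test. Among all tested genes 21.3% rose and 20.1% fell, or 41.4% in either direction, against 59.1%, 13.6% and 72.7% of the tested members. A called change of at least 2-fold was found for 8 members (18.2%), 5 higher and 3 lower, against 6.83% of all tested genes. For 35 members (79.5%) the 3 knockout libraries did not overlap the 3 parental ones, against 50.2% of all tested genes. The median log2 fold change was 0.32 over the tested members and 0.0018 over all tested genes. COL3A1, COL15A1 and COL9A2 passed the filter only through the knockout libraries and COL28A1 only through the parental ones. Of these, COL3A1, COL15A1 and COL28A1 were among the 8 with a change of at least 2-fold, each let through by the group in which it was higher. The filter thus favoured genes that differ, and the counts over tested members include such genes. COL9A2 did not pass the test (log2 fold change 0.16, adjusted p = 0.775 by edgeR). Over the 40 tested members that passed the filter in both groups, 24 rose and 5 fell, and 5 (12.5%) changed at least 2-fold. Of these 40, 32 had groups that did not overlap, and the median log2 fold change was also 0.32.

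**Figure D1:**
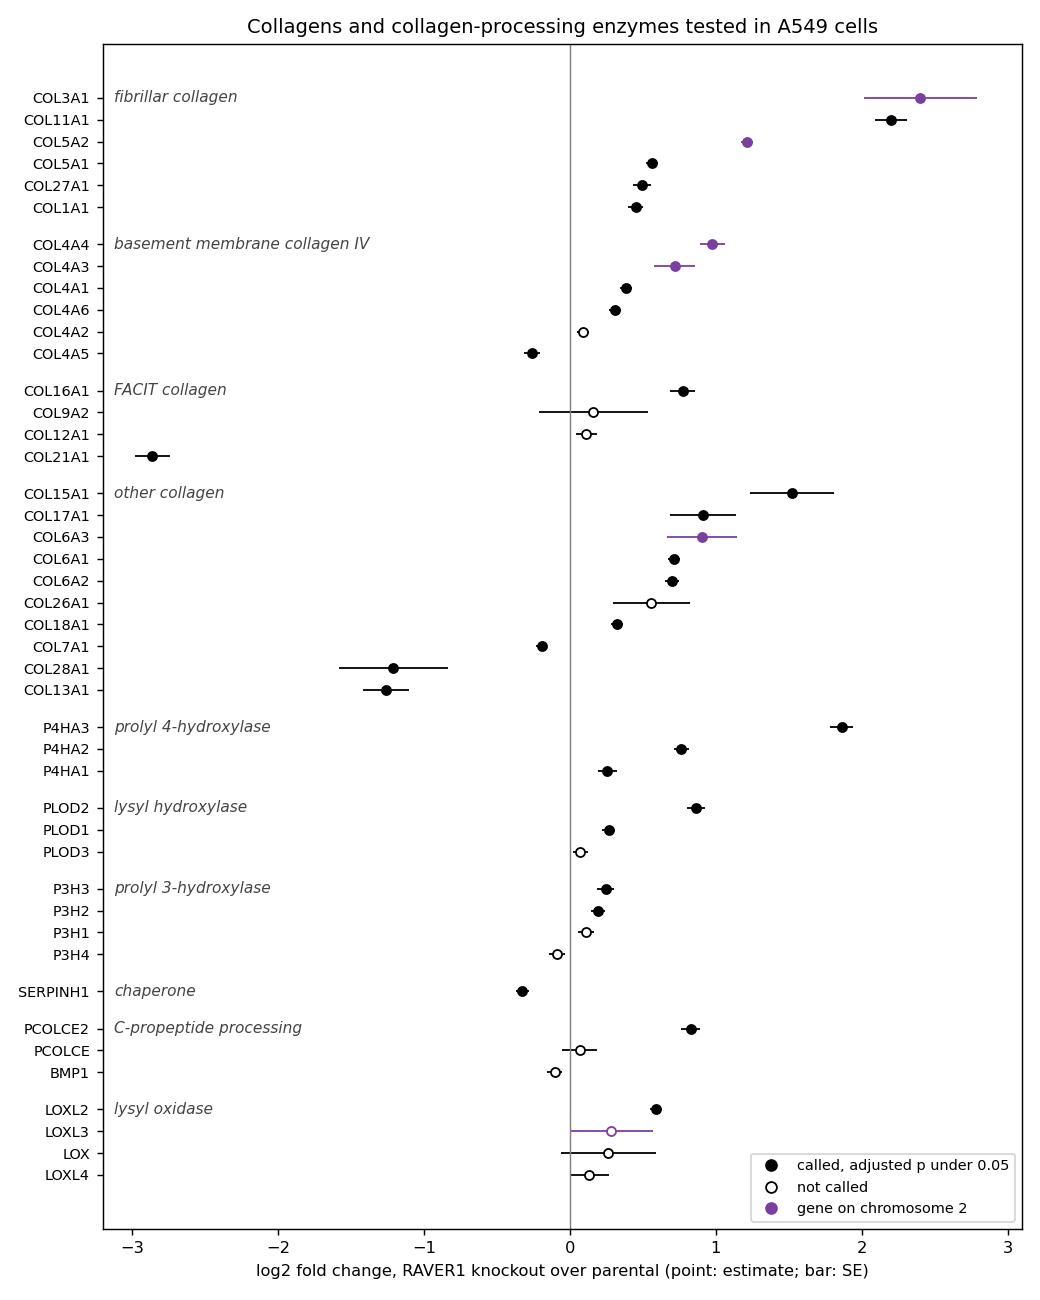
Log2 fold change of each of the 44 tested members, RAVER1 knockout over parental, with its standard error, by class; filled points passed the adjusted p of 0.05 and purple points are genes on chromosome 2. The 6 tested fibrillar collagens, of which COL3A1 passed the filter only through the knockout libraries, lie right of 0, and COL21A1, COL13A1 and COL28A1 lie farthest left. COL28A1 passed the filter only through the parental libraries.

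The share of all counts that fell on collagen genes was 0.312%, 0.317% and 0.317% in knockout libraries, against 0.257%, 0.247% and 0.256% in parental libraries. The processing genes took 0.16%, 0.16% and 0.16% in knockout libraries and 0.132%, 0.132% and 0.131% in parental libraries. Neither share overlapped between the groups. Per length (CPM per kb of the deposited gene length), the collagen genes summed to 314, 311 and 313 in knockout libraries, against 239.9, 226 and 235 in parental libraries. The highest level per length was that of COL18A1, the source of the anti-angiogenic fragment endostatin, with a mean of 68.9 CPM per kb in knockout cells and 55.1 CPM per kb in parental cells. It was followed by COL5A1, with a mean of 51.9 CPM per kb in knockout cells and 35.2 CPM per kb in parental cells, and by COL4A2, with 35.7 CPM per kb in knockout and 33.5 CPM per kb in parental cells. COL5A2 made up 10.3% of the summed collagen level per length there and 5.96% in parental cells. COL7A1 made up 6.03% of it in knockout cells and 9.22% in parental cells.

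**Figure D2:**
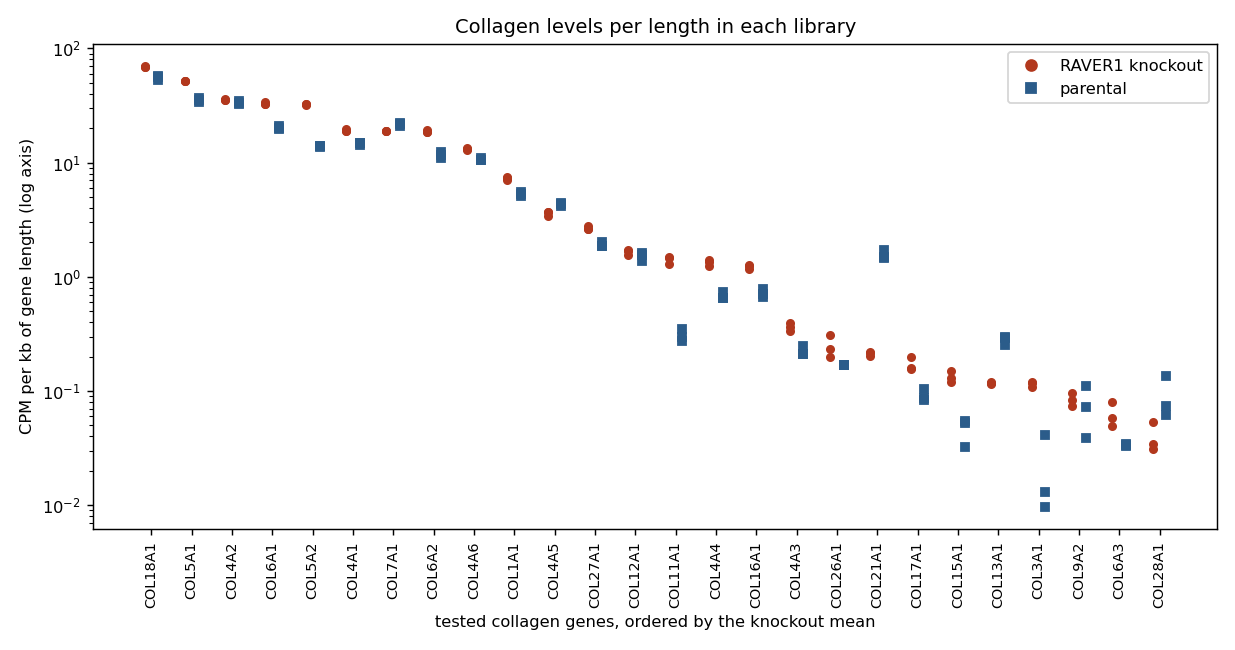
Level per length of each tested collagen gene in each library on a log axis, ordered by the knockout mean; circles are RAVER1 knockout and squares parental libraries. COL18A1 and COL5A1 stand highest in both groups, and COL21A1 is the chain for which the parental squares stand farthest above the knockout circles.

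Of the 11 fibrillar collagen genes 6 were tested and rose, beside a rise for 21.3% of all tested genes, and the other 5 failed the filter. COL3A1 and COL5A2 lie on chromosome 2, where 66.8% of the tested genes rose. COL3A1, among the 6, passed the filter only through the knockout libraries, in which it was higher. COL11A1, a chain of type XI collagen, which in cartilage helps set the width of fibrils, had 11.7, 13.4 and 13.4 CPM in knockout libraries, against 2.71, 2.47 and 3.20 CPM in parental libraries. Its log2 fold change was 2.20 (SE 0.11, adjusted p = 8.83e-12 by edgeR), a 4.58-fold difference. Every knockout library was far above every parental one, and COL11A1 was the largest fibrillar change with a sizeable count. COL3A1, the chain of type III collagen of distensible tissue, was near the lower limit of measurement, with 31, 29 and 25 counts in knockout libraries and 3, 2 and 9 counts in parental libraries. Its log2 fold change of 2.40 (SE 0.39, adjusted p = 5.64e-05 by edgeR) stands on these low counts. With 1 library left out at a time it ran from 2.09 (without parental replicate 2) to 3.26 (without parental replicate 3).

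COL5A2 lies beside COL3A1 on chromosome 2 (hg38 chr2:189031896-189225312, minus strand) and encodes the second chain of type V collagen, which starts and limits fibril growth. It had 238, 235 and 237 CPM in knockout libraries, against 100.2, 103 and 102 CPM in parental libraries. The log2 fold change was 1.22 (SE 0.04, adjusted p = 2.12e-14 by edgeR), and the libraries of each group lay within a few CPM of one another. COL5A1, the first chain of type V, had the smaller fold change, with 580.5, 583 and 574 CPM in knockout libraries against 411, 375 and 392 CPM in parental libraries (log2 fold change 0.56, SE 0.041). The ratio of COL5A1 to COL5A2 per length was thus 1.6, 1.63 and 1.59 in knockout libraries, against 2.68, 2.39 and 2.51 in parental libraries. The tested genes of chromosome 2, which carries COL5A2, had a median log2 fold change of 0.42. Those of chromosome 9, which carries COL5A1, had a median of -0.022. The part of this difference between chromosomes in the ratio was not tested. Type V collagen is best known as a trimer that holds more COL5A1-encoded than COL5A2-encoded chains.

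COL1A1, a chain of type I collagen, the main collagen of bone, skin and tendon, had 67.2, 62.8 and 65.8 CPM in knockout libraries, against 49.4, 47.6 and 46.1 CPM in parental libraries (log2 fold change 0.45, SE 0.052, adjusted p = 8.93e-07 by edgeR). Its usual partner COL1A2 was barely counted, with 5 counts summed over the knockout libraries and 1 over the parental ones. COL27A1, a fibrillar collagen of cartilage, rose with a log2 fold change of 0.49 (SE 0.06). COL5A3, the third type V chain, failed the filter with 29 counts summed over the knockout and 6 over the parental libraries. COL2A1 had no count in any library, and COL24A1 and COL11A2 summed to 5 and 11 counts in knockout libraries and 2 and 8 counts in parental libraries.

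**Figure D3:**
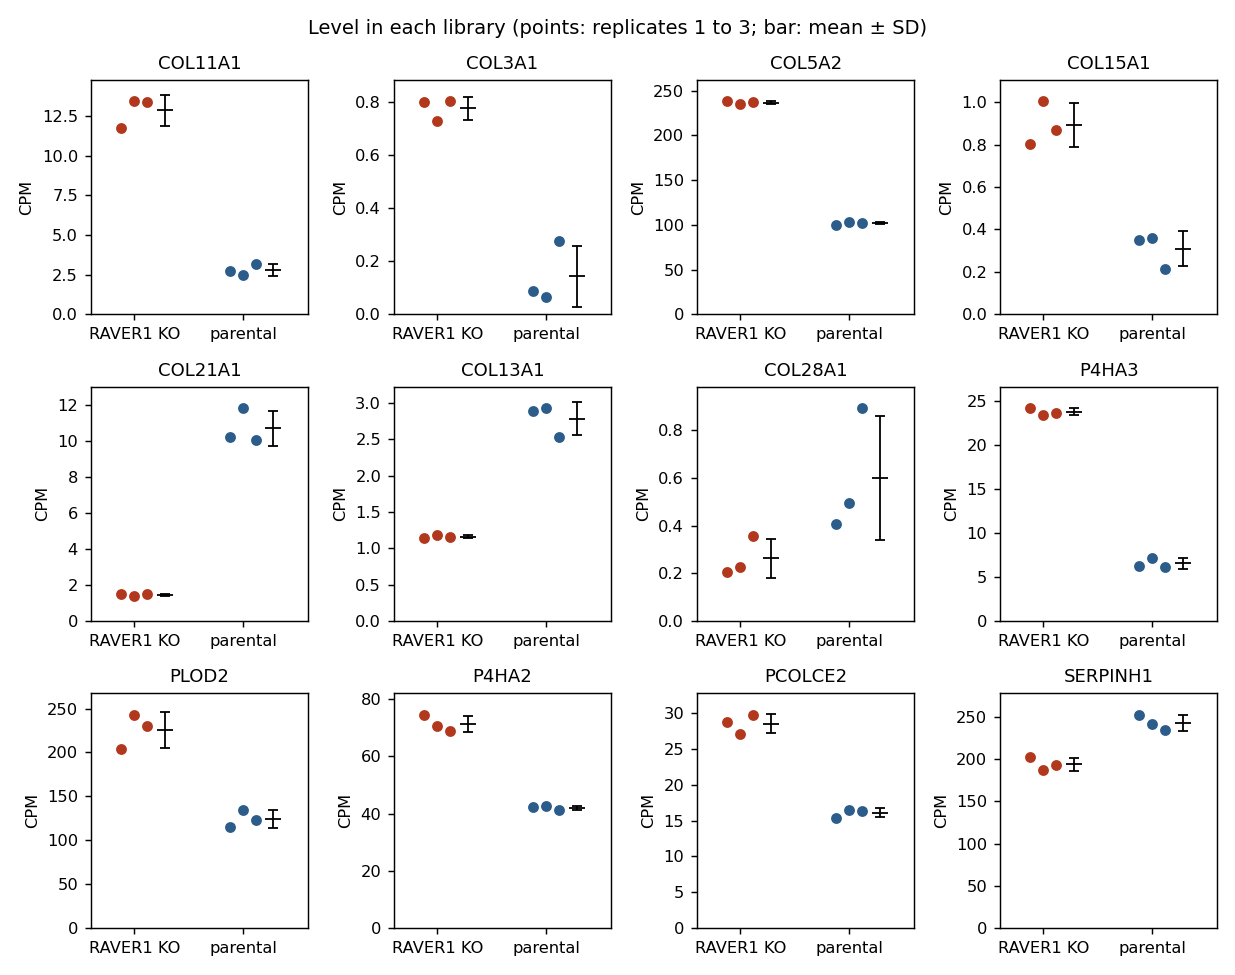
CPM of selected members in each library, RAVER1 knockout left and parental right, each panel on its own linear axis from 0, with bars for mean ± SD. The groups are apart for COL11A1, COL5A2 and P4HA3, which are higher in knockout libraries, and for COL21A1 and SERPINH1, which are lower.

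The 6 chains of type IV collagen lie as head-to-head pairs on 3 chromosomes, so that both genes of a pair start from the same short stretch of DNA in opposite directions. By the RefSeq starts (GRCh38.p14), 127 bases separate COL4A1 from COL4A2, 419 bases COL4A4 from COL4A3 and 380 bases COL4A6 from COL4A5. A second COL4A6 start lies 1416 bases from that of COL4A5. The shared starts are shown because each pair is read from 1 stretch, while COL4A5 fell and COL4A6 rose. Capitals mark CCAAT and GGGCGG, the letters of a CCAAT box and a GC box, on either strand. The first line is the DNA between the starts of COL4A1 and COL4A2 on the plus strand (chr13:110307158-110307283), and the others are the 250 bases before the start of COL4A3 (chr2:227164374-227164623, plus strand), COL4A4 (chr2:227164206-227164455, minus strand), COL4A5 (chrX:108439588-108439837, plus strand) and COL4A6 (chrX:108439459-108439708, minus strand).
COL4A1 to COL4A2: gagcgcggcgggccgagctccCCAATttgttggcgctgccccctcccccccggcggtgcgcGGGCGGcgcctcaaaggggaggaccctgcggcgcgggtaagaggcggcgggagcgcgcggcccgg
COL4A3: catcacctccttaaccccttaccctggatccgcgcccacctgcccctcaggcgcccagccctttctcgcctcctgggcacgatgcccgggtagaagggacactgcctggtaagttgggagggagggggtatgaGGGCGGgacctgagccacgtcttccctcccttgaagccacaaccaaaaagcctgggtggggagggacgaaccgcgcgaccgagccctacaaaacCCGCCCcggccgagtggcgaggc
COL4A4: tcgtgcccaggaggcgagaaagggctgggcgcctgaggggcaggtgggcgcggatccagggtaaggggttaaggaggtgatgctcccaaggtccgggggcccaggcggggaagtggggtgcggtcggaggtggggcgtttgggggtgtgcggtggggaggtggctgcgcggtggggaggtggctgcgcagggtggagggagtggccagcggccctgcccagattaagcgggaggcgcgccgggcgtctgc
COL4A5: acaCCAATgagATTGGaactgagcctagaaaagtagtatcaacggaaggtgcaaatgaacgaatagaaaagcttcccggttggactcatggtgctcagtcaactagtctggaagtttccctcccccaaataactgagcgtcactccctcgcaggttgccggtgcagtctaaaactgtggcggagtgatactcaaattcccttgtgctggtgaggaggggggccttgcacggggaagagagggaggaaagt
COL4A6: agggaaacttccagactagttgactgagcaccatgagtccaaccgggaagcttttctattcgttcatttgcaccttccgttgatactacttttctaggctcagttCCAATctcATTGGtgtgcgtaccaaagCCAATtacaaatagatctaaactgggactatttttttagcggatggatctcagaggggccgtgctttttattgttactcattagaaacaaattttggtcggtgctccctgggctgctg

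The stretch between COL4A1 and COL4A2 held 1 CCAAT and 1 GGGCGG match, the COL4A3 window held 2 GGGCGG matches, and the 2 windows of COL4A5 and COL4A6, which share 121 bases, held 3 different CCAAT positions between them. None of the 5 held TATAAA. The E2 box letters CACCTG, known as a binding sequence of the SNAI and ZEB repressors, occurred once, in the 82 bases that the COL4A3 and COL4A4 windows share, and is not capitalised. Both strands were searched. Among 35116 RefSeq promoters, the 250 bases before the start held CCAAT in 32.0%, GGGCGG in 42.6%, TATAAA in 10.7% and CACCTG in 17.5%. For 126 bases the shares were 21.1%, 34.6%, 5.87% and 8.74% in the same order. The GC content was 80.2% for the COL4A1 to COL4A2 stretch, 66.4% for COL4A3, 72.8% for COL4A4, 51.2% for COL4A5 and 44.0% for COL4A6, against a median of 58.0% over all promoters.

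Of the 6 type IV genes 4 rose and 1 fell, beside 21.3% and 20.1% of all tested genes. COL4A3 and COL4A4, among the 4 that rose, lie on chromosome 2, where 66.8% of the tested genes rose. COL4A1, one of the pair found in all basement membranes, had 278, 289 and 275 CPM in knockout libraries, against 219, 208 and 219 CPM in parental libraries (log2 fold change 0.38, SE 0.041, adjusted p = 3.86e-07 by edgeR). COL4A2, its partner, had 693, 683 and 687 CPM in knockout libraries and 669, 624 and 644 CPM in parental libraries. Its log2 fold change of 0.09 (SE 0.039) did not pass the test (adjusted p = 0.0733 by edgeR), although the groups did not overlap. It passed without parental replicate 1 (log2 fold change 0.118, adjusted p = 0.0407 by edgeR). The ratio of COL4A2 to COL4A1 per length was 1.9, 1.8 and 1.9 in knockout libraries, against 2.33, 2.28 and 2.23 in parental libraries.

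COL4A5 and COL4A6, the X-linked pair, went opposite ways. COL4A5 had 44.2, 40.3 and 43.8 CPM in knockout libraries, against 49.6, 52.0 and 52.1 CPM in parental libraries, a log2 fold change of -0.26 (SE 0.055, adjusted p = 7.69e-04 by edgeR). COL4A6 had 125, 122 and 119.9 CPM in knockout libraries, against 101, 97.7 and 97.9 CPM in parental libraries, a log2 fold change of 0.31 (SE 0.043, adjusted p = 1e-05 by edgeR). The ratio of COL4A6 to COL4A5 per length was therefore 3.62, 3.88 and 3.5 in knockout libraries, against 2.6, 2.4 and 2.4 in parental libraries. COL4A3 and COL4A4, best known from the kidney filter, both rose, with log2 fold changes of 0.72 (SE 0.14) and 0.97 (SE 0.087). Their levels were low, at most 3.54 CPM for COL4A3 and 14.1 CPM for COL4A4 in any library.

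Within-pair ratios were computed for 9 pairs of members, and in 7 of them the groups did not overlap. For the CPM of single genes, 50.2% of all tested genes had groups that did not overlap. Ratios of other gene pairs were not computed, so nothing is read from the count of 7. An exact permutation test (2-sided) of 3 against 3 libraries cannot give a p below 0.1, so each of the 7 stands at p = 0.1, or 0.129 adjusted over the 9, and none could pass a threshold of 0.05. The difference in log2 ratio was -0.29 for COL4A2 to COL4A1, 0.57 for COL4A6 to COL4A5, 0.26 for COL4A4 to COL4A3 and -0.65 for COL5A1 to COL5A2. In contrast, the ratio of COL6A1 to COL6A2 was 1.76, 1.77 and 1.76 in knockout libraries and 1.71, 1.81 and 1.73 in parental libraries, with an exact permutation p of 0.8.

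**Figure D4:**
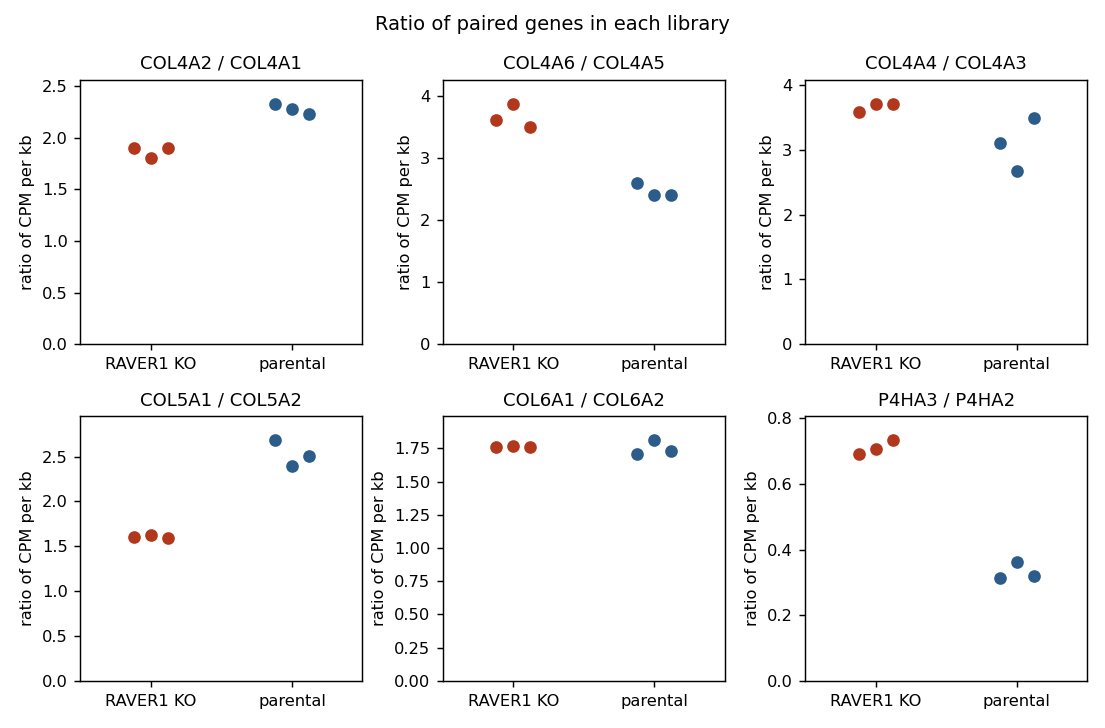
Ratio of the levels per length of 6 gene pairs in each library, RAVER1 knockout left and parental right, on axes from 0. The groups separate for 5 of the pairs, and for COL6A1 to COL6A2 they overlap.

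COL21A1, a FACIT collagen of vessel walls, was the member that fell most. It had 1.53, 1.41 and 1.48 CPM in knockout libraries, against 10.2, 11.8 and 10.1 CPM in parental libraries. Its log2 fold change was -2.86 (SE 0.12, adjusted p = 7.64e-13 by edgeR), a level of 13.8% of the parental one. The gene lies on hg38 chr6:56056590-56394094, minus strand, and the 10 tested genes within 1 Mb of it had a median log2 fold change of -0.049. Of the 10 FACIT genes 4 were tested. COL16A1 rose (log2 fold change 0.77, SE 0.088). COL12A1, which decorates type I fibrils, had 19.6, 20.9 and 21.3 CPM in knockout libraries and 17.3, 19.5 and 20.3 CPM in parental libraries, overlapping groups that did not pass the test (adjusted p = 0.235 by edgeR). COL9A2 stayed under 0.5 CPM in every library and did not pass either.

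Of the 17 other collagen genes 10 were tested, 6 rose and 3 fell, beside 21.3% and 20.1% of all tested genes. COL15A1, among those that rose, passed the filter only through the knockout libraries, and COL28A1, among those that fell, only through the parental ones. COL6A1 and COL6A2, chains of the beaded filaments of type VI collagen, rose together with log2 fold changes of 0.71 (SE 0.043) and 0.70 (SE 0.05). They lie side by side on chromosome 21. The third chain of the classical type VI trimer, COL6A3, on chromosome 2, also rose (log2 fold change 0.90, SE 0.24, adjusted p = 0.00499 by edgeR). It rests on 44, 62 and 30 counts in knockout libraries and 23, 20 and 21 in parental libraries. Without knockout replicate 2 its log2 fold change was 0.68 (adjusted p = 0.0481 by edgeR). At 0.0627 CPM per kb in knockout and 0.0338 CPM per kb in parental cells, COL6A3 was far below COL6A1. COL6A1 had 33.2 CPM per kb in knockout and 20.2 CPM per kb in parental cells. COL6A5 and COL6A6, which can take the place of COL6A3, had no count in any library. COL18A1, also on chromosome 21, had 578, 579 and 593 CPM in knockout libraries, against 481, 446 and 472 CPM in parental libraries (log2 fold change 0.32, SE 0.04, adjusted p = 2.74e-06 by edgeR). Exons of SLC19A1 on the opposite strand cover 16.4% of its exon length, and the strand setting of the counting is not given in the sources used here, so its value is uncertain to that extent.

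COL15A1, the close relative of COL18A1 in basement membrane zones, had 0.802, 1.01 and 0.870 CPM in knockout libraries, against 0.350, 0.362 and 0.215 CPM in parental libraries (log2 fold change 1.52, SE 0.29, adjusted p = 2.87e-04 by edgeR). It passed the filter only through the knockout libraries, in which it was higher. These values rest on 31, 40 and 27 counts in knockout libraries and 12, 11 and 7 counts in parental libraries. COL17A1, a transmembrane collagen of hemidesmosomes, rose with a log2 fold change of 0.91 (SE 0.23) and stayed under 1 CPM in every parental library. COL13A1, another transmembrane collagen, had 1.14, 1.18 and 1.16 CPM in knockout libraries, against 2.89, 2.93 and 2.52 CPM in parental libraries. Its log2 fold change of -1.26 (SE 0.16, adjusted p = 3.42e-06 by edgeR) ran opposite to that of COL17A1. COL7A1, which forms the anchoring fibrils under epithelia, fell slightly (log2 fold change -0.19, SE 0.04, adjusted p = 7.25e-04 by edgeR).

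COL28A1, a beaded-filament type collagen, had 0.207, 0.226 and 0.354 CPM in knockout libraries and 0.408, 0.494 and 0.892 CPM in parental libraries. It passed the filter only through the parental libraries, in which it was higher. Its log2 fold change of -1.21 (SE 0.37, adjusted p = 0.0137 by edgeR) depended on single libraries. Without parental replicate 3 it was -0.81 with an adjusted p of 0.135 by edgeR, and without knockout replicate 2 it was -1.11 with an adjusted p of 0.0544. DESeq2 gave an adjusted p of 0.0503. COL26A1 did not pass the test (adjusted p = 0.104 by edgeR).

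The 19 members that failed the filter were 18 collagen genes and LOXL1. No count in any library was found for 7 of them, COL2A1, COL6A5, COL6A6, COL8A1, COL10A1, COL19A1 and COL25A1, and the highest single count among the 19 was 13. Besides those given above, COL20A1 summed to 24 counts in knockout and 14 in parental libraries, COL9A3 to 18 in each group, COL8A2 to 10 in knockout and 2 in parental libraries, and LOXL1 to 32 in knockout and 12 in parental libraries. These depths do not allow a statement on the smaller of these differences.

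Of the 19 processing genes 18 were tested, 9 rose and 1 fell, beside 21.3% and 20.1% of all tested genes. The catalytic chains of prolyl 4-hydroxylase, whose product holds the triple helix stable at body temperature, all rose. P4HA3 had 24.2, 23.4 and 23.6 CPM in knockout libraries, against 6.24, 7.21 and 6.19 CPM in parental libraries, which was the largest change among the processing genes (log2 fold change 1.86, SE 0.079, adjusted p = 7.45e-13 by edgeR). P4HA2 had 74.6, 70.5 and 68.8 CPM in knockout libraries and 42.2, 42.5 and 41.2 CPM in parental libraries (log2 fold change 0.76, SE 0.051). P4HA1 had 31.5, 33.3 and 31.2 CPM in knockout libraries and 26.6, 29.2 and 24.7 CPM in parental libraries (log2 fold change 0.26, SE 0.066, adjusted p = 0.00405 by edgeR). Exons of PPME1 cover 4.14% of the exon length of P4HA3, and those of P4HA2-AS1 6.45% of that of P4HA2, each on the opposite strand. The P4HA1 call was lost without parental replicate 3 (log2 fold change 0.19, adjusted p = 0.0553 by edgeR). Per length, P4HA1 stood at 1.16, 1.3 and 1.25 times P4HA2 in knockout libraries, against 1.73, 1.89 and 1.65 times in parental libraries, and P4HA3 at 0.692, 0.708 and 0.733 times P4HA2 in knockout libraries, against 0.315, 0.361 and 0.32 times in parental libraries.

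Lysyl hydroxylases modify the lysines from which cross-links and sugar side chains later form. PLOD2, which hydroxylates the telopeptides at the chain ends, had 203, 243 and 229.9 CPM in knockout libraries, against 115, 135 and 122 CPM in parental libraries (log2 fold change 0.86, SE 0.062, adjusted p = 1.69e-09 by edgeR). PLOD1, which acts on the helical part, had 185, 172 and 173 CPM in knockout libraries and 152, 145 and 143 CPM in parental libraries (log2 fold change 0.27, SE 0.044). PLOD3, which can also attach the sugars, had 75.6, 70.2 and 71.8 CPM in knockout libraries and 72.8, 66.8 and 67.4 CPM in parental libraries, and these overlapped (adjusted p = 0.289 by edgeR). The ratio of PLOD2 to PLOD1 per length was 0.764, 0.98 and 0.923 in knockout libraries, against 0.524, 0.646 and 0.593 in parental libraries.

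Of the 4 genes named as prolyl 3-hydroxylases, P3H2 and P3H3 rose a little, with log2 fold changes of 0.20 (SE 0.048) and 0.24 (SE 0.058). P3H1, the enzyme of the complex with CRTAP, and P3H4, a family member without enzyme activity, did not pass the test. SERPINH1 was the only processing gene that fell. It had 202, 187 and 193 CPM in knockout libraries, against 253, 241 and 235 CPM in parental libraries, with a log2 fold change of -0.32 (SE 0.044, adjusted p = 7.14e-06 by edgeR). The chaperone was lower in each knockout library than in any parental library, while the summed level of the collagen genes was higher in each.

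BMP1, the protease that removes C-propeptides, did not pass the test (log2 fold change -0.10, SE 0.05, adjusted p = 0.109 by edgeR), nor did PCOLCE, an enhancer of that cleavage. PCOLCE2, the second enhancer, rose with a log2 fold change of 0.83 (SE 0.065). Among the lysyl oxidases, LOXL2 had 472, 455 and 452 CPM in knockout libraries, against 312, 295 and 308 CPM in parental libraries (log2 fold change 0.59, SE 0.04, adjusted p = 7.41e-10 by edgeR). LOX was close to the filter, with 0.414, 0.578 and 0.322 CPM in knockout libraries and 0.379, 0.428 and 0.308 CPM in parental libraries, and LOX, LOXL3 and LOXL4 did not pass. Per length, LOXL2 was the highest of the tested processing genes, with a mean of 76.8 CPM per kb in knockout cells and 51.0 CPM per kb in parental cells. For 24 members, 19 of them tested, an exon overlaps that of another gene, so these counts can hold reads of a neighbour. The largest overlaps with a single gene were at PCOLCE (16.6% of its exon length), COL18A1 and LOXL3 (14.3%, with HTRA2). Exons of DOK1 overlap a further 4.95% of LOXL3, counted separately.

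Chromosome 2 was shifted as a whole, with a rise for 66.8% of its 1125 tested genes and a median log2 fold change of 0.42, against -0.013 over the genes of the other chromosomes. The 6 tested members on it, COL3A1, COL5A2, COL4A3, COL4A4, COL6A3 and LOXL3, had a median of 0.94, and 5 of them rose. COL3A1 passed the filter only through the knockout libraries. Set against the chromosome median, COL3A1 was 1.98 higher, COL5A2 0.8, COL4A4 0.56, COL6A3 0.48 and COL4A3 0.3 on the log2 scale, and 99.1%, 95.5%, 92.0%, 90.0% and 82.7% of the tested genes of chromosome 2 had a lower fold change than each. LOXL3 lay 0.14 under it. The 9 tested genes within 1 Mb of COL4A3 had a median of 0.854, which is close to the values of COL4A3 and COL4A4 themselves, while the 11 around COL5A2 had a median of 0.498, against 1.22 for COL5A2. The part of the shift of the chromosome in the values of these 6 members was not tested.

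Outside chromosome 2, 38 members were tested, 21 rose (55.3%), 6 fell (15.8%) and the median was 0.27. These include COL15A1 and COL9A2, which passed the filter only through the knockout libraries, and COL28A1, which passed only through the parental ones. Among all tested genes outside chromosome 2, 18.0% rose and 21.1% fell. The changes of COL11A1, COL5A1, COL6A1, COL6A2, COL18A1, P4HA3, PLOD2 and LOXL2 lie on chromosomes whose median over all genes was between -0.034 and 0.105. The highest of these was that of chromosome 11, which carries P4HA3, where 36.6% of the tested genes rose and 11.8% fell. Chromosome 7 had a median of -0.11, with 9.41% of its tested genes higher and 32.9% lower. The part of these shifts in the member values was not tested. All 3 tested members on chromosome 21 rose, where the median of all genes was -0.034 and 16.0% rose. All 3 on chromosome 9 rose too, where the median was -0.022 and 17.8% of all genes rose. COL15A1 on chromosome 9 passed the filter only through the knockout libraries, in which it was higher. Of the 4 tested members on chromosome 7, 0 rose and 1 fell, which was COL28A1. Of the 2 on chromosome 6, 0 rose and 1 fell, where 17.8% of all tested genes rose and 19.0% fell. Tested members lay on 15 chromosomes.

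**Figure D5:**
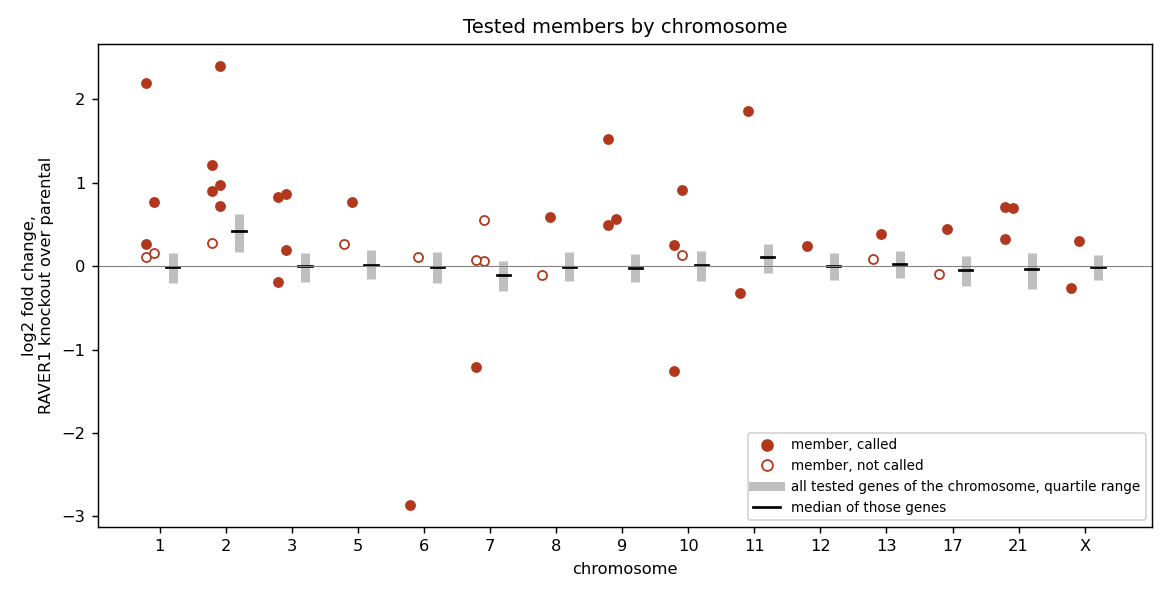
Log2 fold change of each tested member by chromosome, RAVER1 knockout over parental, beside the quartile range (grey) and median (black line) of all tested genes of that chromosome. Chromosome 2 has a median of 0.42, and members on chromosomes 9 and 21 lie above medians close to 0. The lowest member is COL21A1 on chromosome 6. COL15A1 on chromosome 9 passed the filter only through the knockout libraries.

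Of 61 genes that fold, export, process, bind, sense or degrade collagen, 44 were tested, 11 rose (25%), 13 fell (29.5%) and the median log2 fold change was 0.02. Among all tested genes 21.3% rose and 20.1% fell, and nothing is read from the counts of the list or of its roles, which only place the named genes. Of 11 folding genes of the endoplasmic reticulum, 5 fell and 1 rose, where 20.1% of all tested genes fell and 21.3% rose. The rise was that of COLGALT1, which attaches galactose to hydroxylysine (log2 fold change 0.32, SE 0.043). The falls included HSPA5, a general chaperone (-0.20), PPIB, a prolyl isomerase in the P3H1 complex (-0.19), and CALR (-0.16). Of 9 export genes, MIA2, which helps load large cargo such as procollagen, fell (-0.29), and CREB3L1 rose. CREB3L1 is a transcription factor that drives collagen genes in bone of mice, and it had 5.22, 5.63 and 5.35 CPM in knockout libraries, against 1.63, 1.51 and 1.35 CPM in parental libraries (log2 fold change 1.84, SE 0.13, adjusted p = 1.88e-09 by edgeR).

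Among 11 genes of processing outside the cell, 6 were tested, 2 rose and 2 fell, beside 21.3% and 20.1% of all tested genes. PXDN, peroxidasin, which forms the sulfilimine cross-links between type IV collagen trimers, had 0.284, 0.402 and 0.676 CPM in knockout libraries, against 12.4, 12.1 and 12.4 CPM in parental libraries. This fall of -4.80 on the log2 scale (SE 0.16, adjusted p = 3.34e-14 by edgeR) was on chromosome 2, where most genes rose. TGM2, a transglutaminase, rose (1.14), SPARC rose (0.32) and FURIN fell (-0.32). ADAMTS2, which cuts N-propeptides, had no count in any library, and ADAMTS3 had 1 count in all 6.

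Of the genes that bind collagen in the matrix, NID2, a nidogen that links type IV collagen to laminin, had 22.1, 21.8 and 22.1 CPM in knockout libraries, against 3.59, 3.23 and 2.89 CPM in parental libraries (log2 fold change 2.76, SE 0.09, adjusted p = 1.61e-14 by edgeR). Its relative NID1 fell (-0.29), and FN1 (1.01) and LAMC1 (0.34) rose. FN1 lies on chromosome 2, where 66.8% of the tested genes rose and the median was 0.42. Of 12 receptors 9 were tested, 3 rose and 4 fell, beside the same 21.3% and 20.1% of all tested genes. The collagen-binding integrin chains ITGA11 (1.22) and ITGA1 (1.72) and the endocytic receptor MRC2 (0.49) rose, ITGA10 fell (-0.56), and so did the receptors ADGRG1 (-0.96), DDR1 (-0.78) and CD44 (-0.38). Of 9 turnover genes 5 were tested, and 1 changed, beside 41.4% of all tested genes. It was MMP2, a gelatinase that also cuts type IV collagen. MMP2 averaged 20.4 ± 0.46 CPM in knockout libraries and 1.13 ± 0.0615 CPM in parental libraries (SD, n = 3 each).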

How the data were processed

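PolyA RNA was measured in 3 RAVER1 knockout and 3 parental A549 libraries, made from TRIzol RNA with a stranded Illumina kit, per the labels' protocols. The submitters' processing notes name cutadapt 2.8, HISAT2 2.1.0, SAMtools 1.10, featureCounts 2.0.0 and the build hg38. For each gene the deposited table gives its length and, per library, the authors' raw count of reads. The annotation release, strand setting and handling of multi-mapping reads were not given in these sources, so values of overlapping or near-identical genes are uncertain.

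The 60624 genes were analysed in R 4.3.3 with edgeR 4.0.16. The function filterByExpr kept 16652 genes (a cutoff of 0.301 CPM in 3 libraries), TMM factors ran from 0.975 to 1.02, and the quasi-likelihood test compared the groups with no covariate, with Benjamini-Hochberg adjustment over all genes kept. The SE of a log2 fold change is its size over the root of F. The step was tested on simulated counts. CPM used the TMM-scaled library sizes. In 4534 symbols a hyphen was put back. Positions and exon overlaps came from GENCODE release 29, and promoter sequences from RefSeq (GRCh38.p14), which matched 47 of the 63 members. Pairs of libraries within a group differed by 2.41 to 8.86 in chi-square per degree of freedom, so all 6 were kept as separate replicates.

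The members, the lists and the rule for named genes were chosen with earlier results of these data known. Values in every library are given for a fixed set of 16 members. The same holds for members called with a log2 fold change of at least 1, groups apart and at least 0.5 CPM in the higher one. Up to 4 pathway genes per role are named by adjusted p, most with a log2 fold change only. ITGA10, DDR1, CD44, ITGA2 and ITGB1 are named beyond that rule to complete the tested receptors. COL5A1 was added with full values as the partner of COL5A2. Alternatives tried were other scaling (RLE, upper-quartile), other filters (none, or 1 CPM or more in 3 libraries), a block for the replicate number, DESeq2 1.42.0, voom in limma 3.58.1, leaving out 1 library at a time, an adjusted p of 0.01, and the counts without chromosome 2.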

Additional observations from a re-analysis of the deposited data

How the results depend on the processing

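The count of members that rose was 26 and lay between 21 and 28 under all alternatives, with the lowest value where the members on chromosome 2 were left out, and the count that fell was 6 and lay between 5 and 8. For the processing genes the 1 that fell became 2 with upper-quartile scaling, which adds BMP1, and 3 with the replicate number as a block. Leaving out each library in turn gave 1 to 3, the highest without knockout replicate 1. Whether the replicate numbers pair libraries is not settled, and the main test used no block. The correlations of same-numbered deviations were 0.129, 0.029 and 0.014, against -0.093 to 0.067 for libraries of different numbers. Not every library correlated best with its own number. The block gave 28 members higher and 8 lower, and COL4A2, BMP1, P3H1 and P3H4 passed with it. Of 608 gene values under the alternatives, 591 kept their direction and their side of the threshold, 5 fell short of it, 8 passed it and 4 changed sign. The signs that changed belonged to genes that never passed: COL9A2 was -0.127 without parental replicate 2 (range -0.127 to 0.572 over the libraries left out), PCOLCE was -0.0147 without knockout replicate 1 and -0.0082 without parental replicate 2 (range -0.0147 to 0.127), and LOXL3 was -0.0442 without knockout replicate 3 (range -0.0442 to 0.51). The calls lost were those of COL28A1 and P4HA1, and BMP1, P3H1, P3H4 and COL4A2 passed under at least 1 alternative. With no filter COL5A3 passed (log2 fold change 2.04, adjusted p = 0.00679 by edgeR). Upper-quartile scaling moved the median of all genes by -0.0329 and RLE scaling by -0.004 on the log2 scale. The causes of these changes were not tested. Genes under about 1 CPM rest on few counts, and their fold changes are the least certain.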
